A study of Mus musculus with 16 samples.

Results

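Potassium channel genes were followed in fetal mouse pancreas and in islets of aged mice with and without a conditional deletion of Tff2, which encodes a secreted trefoil peptide. The members were all gene symbols of the deposited count tables that start with Kcn and a lower-case letter. Kcnj11 and 4 antisense or overlapping transcripts (Kcnd3os, Kcnmb4os1, Kcnmb4os2 and Kcnq1ot1) were left out, which kept 93 of 98 such symbols among 24091 genes. By name they comprise 30 voltage-gated pore subunits (Kcna, Kcnb, Kcnc, Kcnd, Kcnq, Kcnh), 10 modifier subunits that form no channel alone (Kcnf, Kcng, Kcns, Kcnv), 8 calcium- or sodium-activated pore subunits (Kcnma, Kcnn, Kcnt, Kcnu), 14 inward rectifiers (Kcnj), 14 two-pore-domain channels (Kcnk) and 17 auxiliary or regulatory proteins (Kcnab, Kcne, Kcnip, Kcnmb, Kcnrg). The calcium- or sodium-activated class holds Kcnu1 by its symbol alone, not by what opens it.

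Potassium channels let potassium leave the cell and so set the resting potential and end action potentials. In beta cells, ATP-sensitive channels close when glucose is metabolised, and voltage-gated and calcium-activated channels repolarise the membrane afterwards, which limits calcium entry and insulin release. In neurons, voltage-gated channels such as those containing Kcnq3 restrain repetitive firing, and in epithelia Kcnq1 and two-pore channels support fluid and salt transport.

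All mice carried floxed Tff2 alleles. Controls were Tff2fl/fl and knockouts Pdx1:Cre;Tff2fl/fl, in which a Pdx1 promoter drives Cre in early pancreatic epithelium, so mesenchyme, nerve and vessels are outside the main domain of the driver. Whole pancreata came from embryonic day 16.5 (3 control and 3 knockout libraries), with no embryo sex stated in the labels, and hand-picked islets came from males aged 60 weeks (5 control and 5 knockout libraries). Libraries of polyadenylated RNA held 14866194 to 22699934 counts in pancreas and 22595400 to 32385042 in islets. Tff2 itself, the check of the genotype labels, had 848, 406 and 611 counts in control pancreata against 51, 147 and 27 in knockout pancreata, and 25 to 135 counts in control islets against 0 to 16 in knockout islets. Tff2 was lower in knockout pancreas (log2 fold change -2.80, SE 0.535, edgeR adjusted p = 0.0297), whereas in islets the change of -3.07 did not pass (SE 0.594, edgeR adjusted p = 0.0884), although no knockout islet library reached the lowest control. In control islets the summed beta cell markers reached 137226 to 165068 CPM, against 976 to 1357 in control pancreas, where acinar markers dominated at 55104 to 66525 CPM. Levels are CPM, counts normalised to library size after TMM scaling over all 16 libraries, and p-values measure only the spread between these libraries.

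Most pore subunits share a short selectivity filter that selects potassium over sodium. The coding stretches of this filter are shown for 4 of the 8 pore subunits that rose in knockout pancreas and for Kcnk16, the highest channel of islets, which carries a filter in each of its pore domains. Each stretch is 45 bases of the coding strand of GRCm38, and the capitals mark the 5 filter codons. Where a range is longer than 45 bases, the stretch spans an intron.
Kcnc4 (chr3:107447784-107447828, minus strand): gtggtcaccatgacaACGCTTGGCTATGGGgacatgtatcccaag
Kcnd2 (chr6:21217391-21714156, plus strand): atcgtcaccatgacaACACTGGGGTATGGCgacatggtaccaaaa
Kcna2 (chr3:107105209-107105253, plus strand): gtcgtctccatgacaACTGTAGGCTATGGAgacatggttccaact
Kcnt1 (chr2:25894352-25894396, plus strand): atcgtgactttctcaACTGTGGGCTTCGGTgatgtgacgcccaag
Kcnk16, first filter (chr14:20264304-20265187, minus strand): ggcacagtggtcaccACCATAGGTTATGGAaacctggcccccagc
Kcnk16, second filter (chr14:20262972-20263291, minus strand): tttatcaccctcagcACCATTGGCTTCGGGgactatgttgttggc

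Within the capitals, Kcna2 and Kcnd2 each shared 11 of the 15 bases with Kcnc4, and Kcnt1, the sodium-activated channel, shared 9. The first and second filters of Kcnk16 shared 10 and 11 of these 15 bases. Over the whole 45 bases Kcna2 and Kcnd2 each matched Kcnc4 at 34 positions and Kcnt1 at 27. The first and second filters of Kcnk16 matched Kcnc4 at 22 and 23 of the 45 bases.

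Of the 93 members, 58 passed the filter on low counts in both tissues, 9 in pancreas alone, 8 in islets alone and 18 in neither. These numbers describe detection and are not a test. Kcnk15, Kcnk18 and Kcnmb3 had no count in any library, which allows levels of up to 0.0962 to 0.180 CPM depending on the library (3 counts, counting error only).

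In control pancreas, per kilobase of gene length, Kcnk1, a weakly conducting two-pore channel, stood highest at 28.6 ± 1.41 CPM per kb (SD, n = 3). It was followed by the islet two-pore channel Kcnk16 at 23.1 ± 1.71, by Kcnj8, the pore of the vascular ATP-sensitive channel, at 15.8 ± 0.880, and by the epithelial channel Kcnq1 at 13.9 ± 1.75 CPM per kb. Kcnj8 and Kcnq1 overlapped in their library values, while Kcnk1 lay above Kcnk16, and Kcnk16 above Kcnj8, without overlap. Kcnh2, the pore of the rapid delayed rectifier, followed at 6.78 ± 0.421 CPM per kb, and these 5 genes held 55.3% of the summed level of all members. Kcnk5, an acid-sensitive two-pore channel, followed at 5.73 ± 0.400 CPM per kb without overlap, and Kcnip2, Kcnk3, Kcnk6 and Kcne1l then lay between 4.61 and 3.77 CPM per kb, each overlapping the next.

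Control islets had another order. Kcnk16 reached 138.9 ± 10.1 CPM per kb (SD, n = 5), ahead of Kcnmb2, an auxiliary subunit of the large-conductance calcium-activated channel, at 55.3 ± 0.779 and of Kcnip1, a calcium-binding partner of Kcnd channels, at 32.6 ± 2.49. Kcnh2 at 22.6 ± 0.671 and its relative Kcnh6 at 19.9 ± 2.58 CPM per kb overlapped each other, and these 5 genes held 64.5% of the summed level. Kcnk1 (17.6 ± 2.17), Kcnma1 (12.6 ± 1.19) and Kcnn3 (9.31 ± 1.03 CPM per kb) were also among the leading 10. Kcnma1 encodes the large-conductance pore and Kcnn3 a small-conductance calcium-activated channel. Kcnk16, Kcnh2 and Kcnk1 were among the leading 10 in both tissues.

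**Figure D1:**
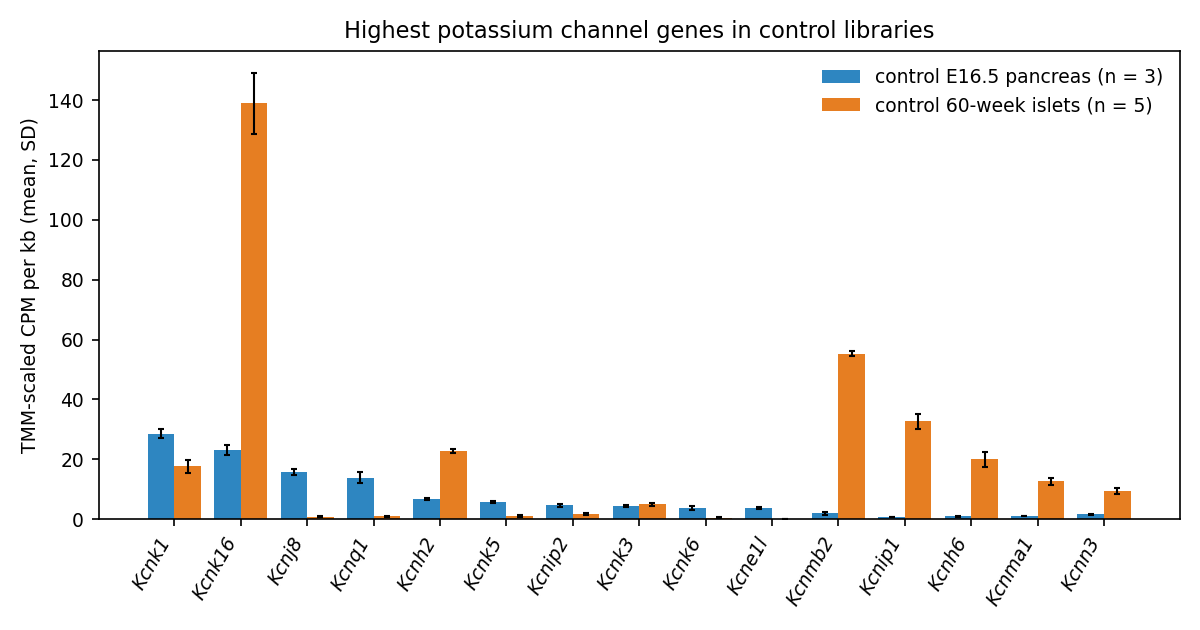
Mean TMM-scaled CPM per kilobase with SD for the members among the 10 highest in control E16.5 pancreas (blue, n = 3) or control 60-week islets (orange, n = 5). Kcnk16 leads in islets at 138.9 CPM per kb, and Kcnk1 leads in pancreas at 28.6.

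Between control islets and control pancreas, 34 members were higher and 29 lower of 75 tested (84%), and 85.9% of all genes tested passed in this contrast (42.4% higher and 43.6% lower), so the share is near the background. Tissue, age, islet isolation and sequencing table differ together here and cannot be told apart. In bulk samples, fewer cells of a type and less RNA per cell cannot be told apart either. By class, 15 of 27 voltage-gated subunits were higher and 8 lower in islets. Among the 8 pores classed as calcium- or sodium-activated, Kcnu1 included, 5 were higher and 2 lower. Among 10 inward rectifiers 5 were higher and 3 lower. Of 10 two-pore channels 3 were higher and 5 lower, of 7 modifiers 2 and 5, and of 13 auxiliary proteins 4 and 6.

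The members with the largest rise in islets were Kcnj6 (log2 difference 6.19), a G protein-gated rectifier, Kcnh5 (5.73), an ether-a-go-go channel, Kcnip1 (5.37), Kcnk12 (4.93), Kcnj12 (4.90), a strong inward rectifier, Kcnmb2 (4.80), the modifier Kcnf1 (4.55) and Kcnh6 (4.37). Kcnj6 had 15.8, 13.7, 10.9, 16.6 and 13.9 CPM in the control islets and 0.122, 0.251 and 0.206 CPM in the control pancreata. Kcnk16 rose by a log2 difference of 2.59, from 21.5, 20.5 and 18.5 CPM in pancreas to 125, 113, 135, 118 and 115 CPM in islets. Kcnma1 (3.42) and Kcnh2 (1.74) were higher in islets as well (edgeR quasi-likelihood test with Benjamini-Hochberg adjustment, adjusted p = 3.06e-13 and 1.42e-12).

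In the other direction, Kcne1l, an auxiliary subunit, was lower in islets by a log2 difference of -6.87, with 4.93, 5.42 and 5.97 CPM in pancreas and 0 to 0.0698 CPM in islets. Kcnj8 (-4.17), Kcnq1 (-3.90), Kcnmb4 (-3.38), Kcne3 (-3.19), Kcnk6 (-2.94), Kcnd3 (-2.80) and Kcnh7 (-2.78) followed among members of at least 1 CPM in pancreas. Below that level, Kcnv2 (-6.46) and Kcng1 (-6.16) were among the members also called lower in islets. Kcnq1 had 51.6, 58.0 and 45.0 CPM in control pancreata and 2.61 to 4.42 CPM in control islets, and its auxiliary subunit Kcne3, which holds it open in epithelia, had 3.71, 3.11 and 3.45 against 0.150 to 0.636 CPM. Kcne1, the other well-known partner of Kcnq1, had 7 counts over the control pancreata and none over the control islets, at least 4.45-fold higher against a floor of 3 counts over the group. On the same floor Kcng1 was at least 15.9-fold and Kcnv2 at least 19.7-fold higher in pancreas, and Kcnj9 at least 6.64-fold higher in islets. Kcnk3, an acid-sensitive two-pore channel, did not pass, with 15.5 to 18.8 CPM in pancreas and 16.4 to 21.1 CPM in islets (log2 difference 0.16, SE 0.121).

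In E16.5 pancreas, 10 members rose in the knockout and none fell, of 67 tested. The share that rose was 14.9%, and 6.43% of all genes tested were called, 3.75% higher and 2.68% lower. Kcnq3 and Kcnc4 passed the filter on low counts only through the knockouts, so they could be tested only by being high there. With no filter, 11 of 89 members and 3.22% of all genes were called higher. An unadjusted p under 0.05 was reached by 28 members (41.8%), against 25.4% of all genes, and 47 of the 67 fold changes were positive, with a median log2 fold change of 0.28 against -0.00 over all genes. Knockout and control values did not overlap for 19 members on the higher side and 7 on the lower side, where the background was 13.6% and 18.2% of all genes. By class, 6 of 25 voltage-gated subunits rose, among them Kcnq3, Kcnc4, Kcnq5, Kcnd2 and Kcna2, with 1 of 8 calcium- or sodium-activated pores (Kcnt1), 1 of 6 inward rectifiers (Kcnj10) and 2 of 13 auxiliary proteins (Kcnab1 and Kcnip4). None of 7 modifiers or 8 two-pore channels passed (1 and 4 at an unadjusted p under 0.05, edgeR). Leaving out control 02, 08 or 13 left 0 members called, although all 10 kept their sign. Over all genes, 0 were called without control 02 or 13, and 3 higher and 1 lower without control 08. Of the 10 members, 7, 6 and 6 were still called without knockout 01, 18 and 19. In those fits 4.62%, 3.06% and 4.00% of all genes were called higher. Over the 15 alternatives, Kcna2 was called in 8, Kcnip4 and Kcnj10 in 9, and Kcnq5 and Kcnab1 in 10.

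Kcnq3, a voltage-gated subunit of neurons, had 0.449, 0.151 and 0.411 CPM in the controls and 9.39, 4.98 and 2.42 CPM in knockouts 01, 18 and 19 (log2 fold change 4.03, SE 0.594, edgeR adjusted p = 0.0186). Knockout 01 was highest and knockout 19 lowest, and the groups did not overlap. Kcnq5, a related subunit, went from 7.42, 8.09 and 8.64 CPM to 15.5, 10.7 and 15.7 CPM (log2 fold change 0.82, SE 0.163, edgeR adjusted p = 0.0323), with knockout 18 lowest.

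Kcnc4, a fast voltage-gated channel, had 0.122, 0.201 and 0.154 CPM in the controls and 4.90, 1.80 and 0.843 CPM in the knockouts (log2 fold change 3.99, SE 0.762, edgeR adjusted p = 0.0297). The control values of Kcnc4 rest on 3, 4 and 3 counts. Kcnt1, which opens with intracellular sodium, had 1.06, 1.05 and 1.18 CPM against 9.29, 5.40 and 2.85 CPM (log2 fold change 2.43, SE 0.422, edgeR adjusted p = 0.0253). Both repeated the order of Kcnq3 over the knockouts. Kcnh4, a related voltage-gated subunit too low for the main test, had 0.0408, 0.0502 and 0.103 CPM in the controls and 1.07, 0.720 and 0.211 CPM in the knockouts. It was picked out after its values were seen, because it was called once the filter on low counts was removed.

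A further 5 rises were smaller. Kcnd2, a transient A-type channel, went from 3.47, 3.41 and 3.75 CPM to 8.87, 5.82 and 5.74 CPM (log2 fold change 0.96, SE 0.202, edgeR adjusted p = 0.0365), and Kcnip4, which binds Kcnd pores, went from 1.22, 1.10 and 0.669 CPM to 2.29, 2.10 and 2.27 CPM (1.15, SE 0.260, edgeR adjusted p = 0.0423). Kcna2, a delayed rectifier of axons, went from 4.24, 3.21 and 2.88 CPM to 6.21, 6.00 and 5.38 CPM (0.78, SE 0.181, edgeR adjusted p = 0.0466). Kcnab1, a cytoplasmic beta subunit of Kcna channels, went from 9.95, 13.3 and 11.8 CPM to 15.5, 20.2 and 21.8 CPM (0.73, SE 0.155, edgeR adjusted p = 0.0381). Here knockout 01 was the lowest knockout, opposite to its place for Kcnq3. Kcnj10, an inward rectifier known from glia, went from 1.10, 1.10 and 0.926 CPM to 2.33, 2.34 and 1.74 CPM (1.04, SE 0.230, edgeR adjusted p = 0.0409). Several further members, such as Kcnab2, Kcna1 and Kcnn3, were higher without overlap between groups but did not pass.

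**Figure D2:**
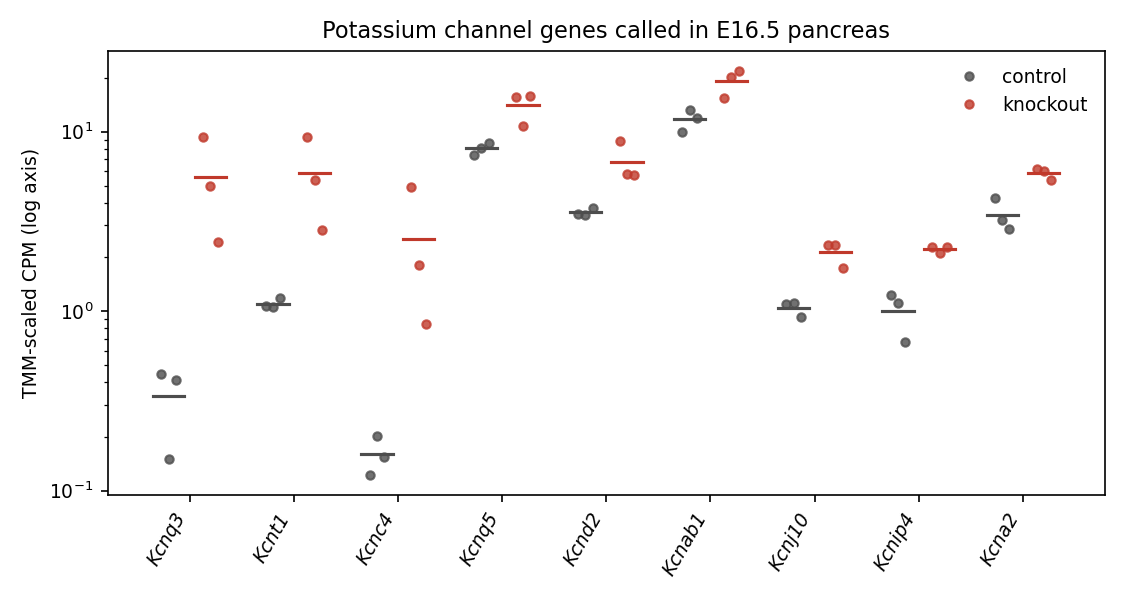
TMM-scaled CPM on a log axis for 9 of the 10 members called in E16.5 pancreas, with 1 point per library (3 control in grey, 3 knockout in red, lines at the means). Knockout points lie above every control point for each gene, with the widest gaps for Kcnq3 and Kcnc4.

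Markers of sympathetic neurons were examined in the same pancreata. The marker lists were chosen with earlier results of these data known, so their shares are not an independent test. Of 12 markers, 11 were higher in knockout pancreas, against 3.75% of all genes tested. The summed level of the 12 markers was 140, 125 and 133 CPM in controls 02, 08 and 13. It was 1015, 525 and 280 CPM in knockouts 01, 18 and 19. Dbh, which makes noradrenaline, had 0.122, 0.301 and 0.309 CPM against 84.7, 36.9 and 17.3 CPM, and Slc6a2, its reuptake transporter, had 0.122, 0.502 and 0.206 against 147, 62.2 and 23.4 CPM. Among the 10 members called, Kcnq3, Kcnc4, Kcnt1, Kcnd2 and Kcna2 had the same order over the 3 knockout libraries as these sums, while Kcnab1 had the reverse order. Knockouts 18 and 19 were close for Kcnd2 (5.82 and 5.74 CPM) and Kcna2 (6.00 and 5.38 CPM, 100 and 102 counts). An order over 3 libraries can match by chance, and the share of all genes with this order was not counted. Of 8 markers of Schwann cells and enteric glia, 3 were higher and 1 lower, with sums of 81.6 to 93.5 CPM in controls and 94.5 to 114 CPM in knockouts. Of 8 smooth muscle and pericyte markers, 4 were higher, with sums of 309 to 373 and 394 to 551 CPM. The part of these markers in the channel results was not tested.

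**Figure D3:**
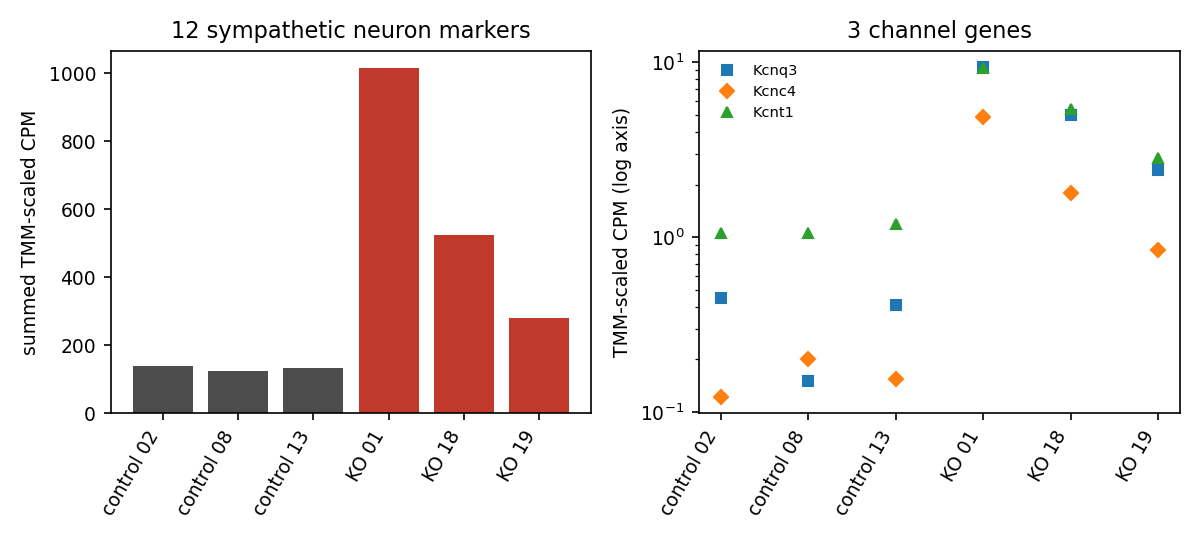
Left, summed TMM-scaled CPM of 12 sympathetic neuron markers in each of the 6 E16.5 pancreata. Right, TMM-scaled CPM of Kcnq3, Kcnc4 and Kcnt1 on a log axis in the same libraries, highest in knockout 01 and lowest among knockouts in knockout 19.

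The channels that led control pancreas did not pass in the knockout comparison, and several had lower values. Lower values without overlap were found for 7 of the 67 members tested (10.4%), against 18.2% of all genes. Kcnq1 had 51.6, 58.0 and 45.0 CPM in the controls and 38.9, 40.2 and 40.7 CPM in the knockouts (log2 fold change -0.35, SE 0.0913, edgeR adjusted p = 0.0599). Kcnk16 had 21.5, 20.5 and 18.5 against 16.6, 15.5 and 14.1 CPM (-0.37, SE 0.0984, edgeR adjusted p = 0.0621), and Kcnk1 had 65.2, 69.3 and 62.9 against 53.3, 58.4 and 53.8 CPM (-0.24, SE 0.0632, edgeR adjusted p = 0.0623). Kcnk5 (-0.28) and Kcnh2 (-0.33) likewise did not overlap between groups, with edgeR adjusted p = 0.0865 and 0.131. Scaling to 15 pan-epithelial genes, of which 10 were lower in the knockout, turned these fold changes to 0.08 (Kcnq1), 0.05 (Kcnk16), 0.19 (Kcnk1), 0.13 (Kcnk5) and 0.10 (Kcnh2), and moved the median of all genes from -0.00 to 0.42. Under that scaling 37 of 67 members were called higher, against 67.3% of all genes. Summed beta cell markers, of which 7 of 8 were lower, were 976 to 1357 CPM in controls and 450 to 610 CPM in knockouts, and the part of these cell markers was not tested. Kcnj8, the vascular pore, had 37.4, 33.7 and 37.0 CPM against 35.3, 42.0 and 46.6 CPM, with overlapping groups (0.21, SE 0.103, edgeR adjusted p = 0.245).

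In 60-week islets, 1 member rose in the knockout and none fell, of 66 tested, where 0.155% of all genes tested were called, 0.113% higher and 0.0422% lower. An unadjusted p under 0.05 was reached by 10 members (15.2%), against 7.18% of all genes, and DESeq2 called 1 higher and 2 lower. The gene was Kcnab3, a beta subunit of Kcna channels. It had 16.02, 13.5, 14.9, 15.9 and 13.9 CPM in controls 052, 826, 829, 857 and 858 and 19.7, 22.9, 18.8, 19.5 and 21.4 CPM in knockouts 055, 122, 803, 812 and 845 (log2 fold change 0.46, SE 0.0718, edgeR adjusted p = 0.0312). All 5 knockouts lay above all 5 controls, but leaving out any 1 library other than knockout 055 ended the call, with edgeR adjusted p from 0.0510 to 0.0974. With 1 library left out, calls higher over all genes were 3 to 16, against 16 with all islet libraries. Kcnab3 shares 147 exon bases (5.79% of its exons) with the antisense gene Kcnab3os. Neither the labels nor the tables state whether reads were counted by strand, so reads of the 2 genes may not be separated.

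The next members by p were Kcnh5, Kcnj12, Kcnh2 and Kcnd1, and none passed with edgeR. Kcnh5 had 11.7, 14.1, 14.1, 14.9 and 12.8 CPM in controls and 10.5, 9.09, 9.62, 12.5 and 9.88 CPM in knockouts (log2 fold change -0.40, SE 0.0943, edgeR adjusted p = 0.179), with 1 knockout inside the control range. Kcnj12 had 20.2, 18.7, 14.35, 18.6 and 15.5 CPM in controls and 14.29, 10.9, 12.4, 8.06 and 14.03 CPM in knockouts (-0.55, SE 0.144, edgeR adjusted p = 0.279). Its groups did not overlap, but only by 14.35 against 14.29 CPM. Of the 66 members tested, 1 was higher (Kcnab3) and 1 lower (Kcnj12) without overlap. The share over all genes is not given. Kcnh5 and Kcnj12 were the 2 members DESeq2 called lower, with adjusted p = 0.0239 and 0.0339. Kcnh2 (-0.13, SE 0.0402, edgeR adjusted p = 0.469) and Kcnd1, an A-type pore (0.26, SE 0.0998, edgeR adjusted p = 0.596), overlapped between groups.

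**Figure D4:**
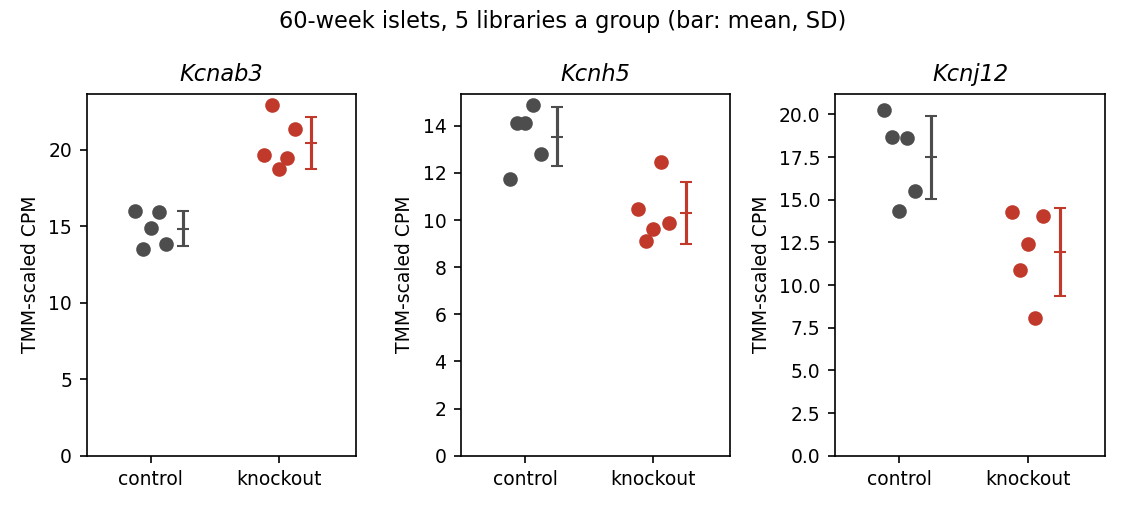
TMM-scaled CPM of Kcnab3, Kcnh5 and Kcnj12 in 60-week islets, with 1 point per library (5 control in grey, 5 knockout in red) and the mean with SD beside them. Kcnab3 is the only one of the 3 called with edgeR, and its knockout values of 18.8 to 22.9 CPM lie above the controls.

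The leading islet channels overlapped between genotypes. Kcnk16 had 125, 113, 135, 118 and 115 CPM in controls and 129, 112, 106, 113 and 124 CPM in knockouts (log2 fold change -0.06, SE 0.0623). Kcnh6 had 58.0, 72.1, 55.1, 53.9 and 54.6 against 68.5, 65.5, 60.5, 61.4 and 57.2 CPM (0.09, SE 0.0798). Kcnmb2 had 158 to 164 CPM in controls and 156 to 167 CPM in knockouts, and Kcnma1 had 113 to 140 and 116 to 134 CPM. None of the 10 sympathetic neuron markers tested in islets passed with edgeR, and 0 reached an unadjusted p under 0.05.

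The genotype effect in pancreas exceeded that in islets for 9 members and fell below it for 1, of 75 tested (13.3%), and 7.19% of all genes tested passed, 3.25% with a higher and 3.94% with a lower effect in pancreas. The contrast uses the same libraries as the comparisons above. The difference in log2 fold change was 4.39 for Kcnq3 (SE 0.762), 3.58 for Kcnc4 (SE 0.694) and 2.36 for Kcnt1 (SE 0.463), with edgeR adjusted p = 0.00343, 0.00670 and 0.00699. For these 3 genes the call held in all 24 alternatives run. It was 1.22 for Kcnd2, 1.08 for Kcnip4 and 1.01 for Kcnab1. Kcnj12 (1.65, SE 0.437, edgeR adjusted p = 0.0309) passed here without passing in either tissue. Kcnj12 went from 0.612, 0.603 and 0.514 CPM to 1.96, 0.960 and 0.738 CPM in pancreas. Kcnab3 was the member with the opposite sign (-0.65, SE 0.169, edgeR adjusted p = 0.0288), and in pancreas it had 2.16, 2.11 and 1.90 CPM against 1.59, 1.74 and 2.11 CPM. The call ended in 9 of the 24 alternatives for Kcnab1, in 8 for Kcnab3, in 5 for Kcnj12, in 3 for Kcnip4 and in 2 for Kcnd2.

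**Figure D5:**
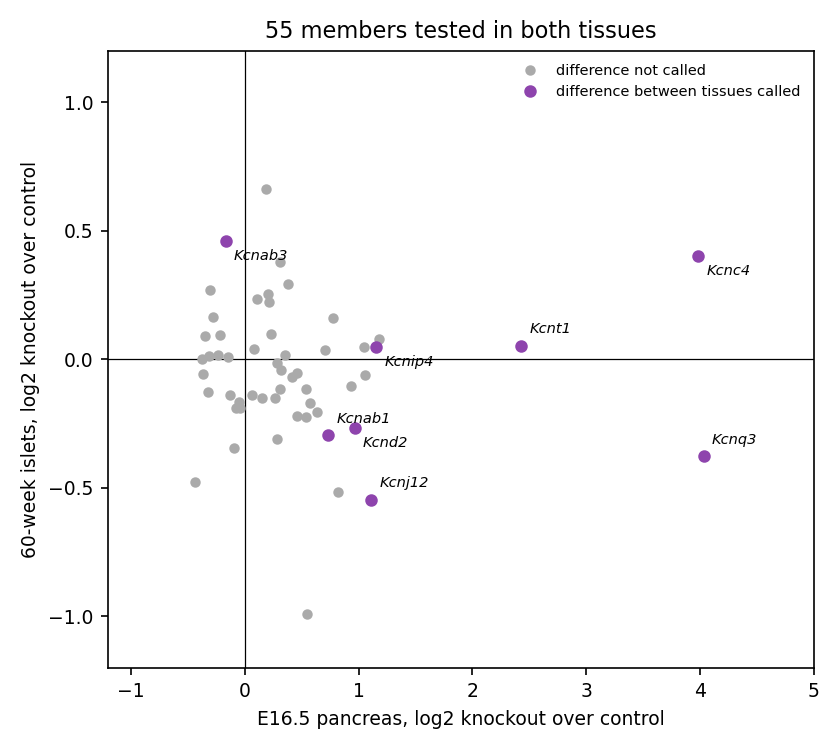
Log2 fold change of knockout over control in E16.5 pancreas (horizontal) and 60-week islets (vertical) for 55 of the 58 members tested in both, with 1 point per gene. Purple points are the members whose effect differed between tissues, and Kcnq3, Kcnc4 and Kcnt1 lie far to the right at islet values between -0.38 and 0.40.

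Of 39 other genes of potassium handling, 34 were tested in pancreas, where 4 rose and 2 fell (background 6.43% of all genes). Fxyd7, a sodium pump regulator of brain (log2 fold change 1.91), Dpp6, a partner of Kcnd channels (1.03), and Akap5, which anchors kinases near channels (0.89), were among those that rose. Abcc8, the sulfonylurea receptor of the beta cell ATP-sensitive channel, fell from 82.3, 85.1 and 85.3 CPM to 56.4, 41.6 and 50.8 CPM (-0.74, SE 0.102, edgeR adjusted p = 0.0176). Atp1b1, a pump beta subunit, fell as well (-0.35, edgeR adjusted p = 0.0393), but scaling to the pan-epithelial genes turned this to 0.08. In islets none of 34 tested passed with edgeR (background 0.155%), and 1 (Slc12a7) reached an unadjusted p under 0.05. Between tissues, 19 of 35 were higher and 12 lower in control islets, a share near the background of 85.9%. The 3 of lowest p were Abcc8 (log2 difference 3.83), Amigo1, an auxiliary channel protein (2.38), and Slc12a7, a potassium-chloride cotransporter (2.24). The genotype effect differed between tissues for 10 of 35, 5 in each direction, where 7.19% of all genes were called.

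Of the 93 members, 22 share exon bases with another annotated gene and 11 share over 5% of their exons, all on the opposite strand, so their counts are uncertain to that extent. Among the members described above, the shared part was 75.3% for Kcnmb4 (over 2 antisense genes), 8.01% for Kcnk1, 7.87% for Kcnma1, 5.81% for Kcnj6 and 5.79% for Kcnab3. It was below 5% for the others described above. The exons of Kcnq3, Kcnc4 and Kcnt1 shared none.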

How the data were processed

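Gene counts for 16 libraries of polyadenylated RNA were used as deposited by the authors in 2 tables, 1 per tissue, with a gene length column. Per the submitters' processing notes, the tools were HTSeq 0.11.1, STAR 2.6.0, edgeR and Trimmomatic and the build mm10, with no role given, and the annotation version and strand setting are not stated. Groups came from the labelled genotypes. Totals per library were 14866194 to 32385042 counts.

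The members and gene lists were chosen with earlier results of these data known. Counts were tested in R 4.3.3 with edgeR 4.0.16 (TMM, default filterByExpr, glmQLFit and glmQLFTest, Benjamini-Hochberg adjustment over all genes tested, threshold 0.05). Genotypes were compared within each tissue, and 1 fit over all 16 libraries gave the difference between control tissues and the interaction. Levels are TMM-scaled CPM, divided by the deposited length to compare genes. Named members were those past the threshold in a genotype comparison or the interaction (with fewer than 3, the 5 lowest p), the 10 highest per length in each control tissue, the 8 largest differences each way between tissues at 1 CPM or more, and a panel of 22 genes. Some genes and sequences are not reported here. Exon overlaps and filter codons were read from GENCODE and GRCm38. In counts simulated with a fixed spread, the tests recovered planted changes of a single size. That size was above several of the changes called here, so the simulation checks the code and not the power or error of these calls. Alternatives were other scalings, filters, DESeq2 1.42.0, limma 3.58.1 (voom), other sample sets and leaving out each library. Replicate pairs differed beyond counting noise (lowest chi-square per degree of freedom 4.90). Marker lists covered sympathetic neuron, glia, smooth muscle, endothelial, acinar, duct, islet cell, macrophage, erythroid, mesothelial, adrenal and pan-epithelial genes. In pancreas, endothelial (2 of 7), acinar (1 of 8), duct (3 of 5), alpha (3 of 5), delta (2 of 2) and gamma (1 of 1) markers were lower, macrophage (1 of 5) and mesothelial (1 of 5) markers were higher, and 0 of 5 erythroid and 0 of 2 adrenal markers passed with edgeR.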

Additional observations from a re-analysis of the deposited data

Results flagged for a closer look

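In 3 of 67 groups tested, each of 5 islet libraries, 1 library stood apart from the other 4 by Dixon's criterion, and chance flags about 1 in 20 groups. Knockout 845 was highest for Kcnd2, at 3.14 CPM against 1.65 to 1.92 in the others. Control 826 was highest for Kcnh6, at 72.1 CPM against 53.9 to 58.0, and control 829 for Kcnk1, at 49.1 CPM against 36.9 to 40.1.

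The genotype effect differed between fetal pancreas and islets, by the interaction test, for 10 members, of which 8 are given. The difference in log2 fold change (pancreas minus islets) was 4.39 for Kcnq3, 3.58 for Kcnc4, 2.36 for Kcnt1, 1.08 for Kcnip4, 1.22 for Kcnd2, 1.65 for Kcnj12, 1.01 for Kcnab1 and -0.65 for Kcnab3. The summed sympathetic neuron markers were 125 to 140 CPM in control and 280 to 1015 CPM in knockout pancreas, and 199 to 282 and 196 to 328 CPM in control and knockout islets. In control islets Th, Elavl4 and Tubb3 were highest (means 104, 70.5 and 36.7 CPM), with Dbh at 0.290 and Slc6a2 at 0.144 CPM. In control pancreas Hand2 and Stmn2 were highest (45.9 and 33.4 CPM). The sums therefore do not compare neuron content between the tissues. The part of the markers in the differences between tissues was not tested.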

How the results depend on the processing

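All 10 members called in pancreas kept their sign in every alternative run that tested them (Kcnc4 was not tested with the filter of 1 CPM), but Kcna2 passed in 8 of 15, Kcnip4 and Kcnj10 in 9, and Kcnq5 and Kcnab1 in 10. Calls higher fell from 10 to between 0 and 8 when 1 library was left out (0 without control 02, 08 or 13), and calls lower were 0 to 1 (1 without knockout 01). Over all genes, calls higher fell from 560 to 0, 3 and 0 without control 02, 08 and 13. DESeq2 and limma-voom each called 1 member lower (Kcnq1 and Kcnk16), and the fit over all libraries called 2 (Kcnh2 and Kcnk16). Scaling to pan-epithelial genes called 37 of 67 members higher, against 67.3% of all genes, and turned the log2 fold changes of Kcnk16 (0.0533), Kcnq1 (0.0784), Kcnk1 (0.19), Kcnk5 (0.13), Kcnh2 (0.10), Kcnab3 (0.25) and Atp1b1 (0.0755) positive, and the cause was not tested. In islets, DESeq2 called 2 members lower (47 over all genes), and calls higher were 0 to 1 with 1 library left out (3 to 16 over all genes). For the interaction, calls lower were 0 with library totals, DESeq2, limma-voom and pan-epithelial scaling, which called 31 of 75 higher, against 53.3% of all genes. With 1 library left out, calls higher were 5 (without pancreas knockout 01) to 11 and calls lower 0 (without pancreas control 08 or knockout 18) to 3 (without islet control 829). Over all genes, calls higher were then 254 to 625 and calls lower 261 to 666. Both counts between tissues stayed within 1.5 times in every alternative run. No paired analysis was possible because the animal numbers are not shared between groups. Depth limits the lowest members, such as Kcnc4 and Kcnq3 in control pancreas.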
